A study of Sus scrofa with 6 samples.

Results

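Mitochondrial ribosomal proteins are encoded in the nucleus, made in the cytosol and imported into mitochondria, where they join mitochondrial rRNA to form the mitoribosome. The mitoribosome translates the few proteins that mitochondrial DNA encodes, all of them subunits of the respiratory chain or ATP synthase. Its large subunit forms the peptide bond, and its small subunit binds and decodes the mRNA. The myocardium depends on respiration for contraction and holds many mitochondria, and inherited defects of several mitoribosomal proteins cause cardiomyopathy.

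The genes described here are all those whose symbol in the deposited table starts with MRPL or MRPS and a digit. They number 67 of the 13288 listed genes, 40 with an MRPL symbol (large subunit) and 27 with an MRPS symbol (small subunit). All 67 passed the filter on low values used for the tests. Of 77 such symbols in the RefSeq annotation of the pig, the other 10 were not among them. For 3 of these 10 the table gives a gene identifier without a symbol, and they are described separately.

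The RNA came from ventricular tissue of male Tibetan minipigs, and the labels name no drug or allele in either group. The sham group (n = 3) underwent thoracotomy without narrowing of the vessel, and the DAC group (n = 3) had the descending aorta constricted, which raises the pressure against which the left ventricle works. Tissue was taken at week 12 after surgery. Each library holds 1 minipig, and the libraries carry the replicate numbers 1 to 3 (sham) and 4 to 6 (DAC). The model gives chronic pressure overload from a single constriction, and the tissue is a mixture of all cell types of the ventricular wall, so fewer cells of a type and less RNA per cell cannot be told apart.

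The values are FPKM, fragments scaled to the length of the transcript and the size of the library, so that levels of different genes can be compared per length. The sum of FPKM per library was between 281377 and 308771, and read counts cannot be had from these values. Of 10 cardiomyocyte markers 9 were in the table, and their sum was between 16527 and 17493 FPKM in the sham group and between 15733 and 18950 FPKM in the DAC group. The sum of 10 fibroblast markers was between 579 and 667 FPKM in the sham group and between 794 and 919 FPKM in the DAC group. Of these 10, 5 passed the test described below, all higher in DAC (beside 3.25% of all genes tested). Mitochondrially encoded genes took 24.0% to 25.3% of all FPKM in the sham libraries, 27.2% in DAC replicate 4, 32.8% in DAC replicate 5 and 27.1% in DAC replicate 6. The part of these differences in the results was not tested, except that the mitochondrially encoded genes were left out in an alternative.

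Levels differed widely within each subunit, although the assembled particle holds most of these proteins in equal number. In the large subunit, mean FPKM over the 6 libraries ran from 2.41 for MRPL13 to 75.6 for MRPL51, a range of 31.4-fold. The 5 highest members, MRPL51, MRPL12, MRPL46, MRPL41 and MRPL38, held 33.1% of the summed FPKM of the large subunit. MRPL13, MRPL50 and MRPL36 were the lowest, at 2.41, 3.36 and 4.53 FPKM. In the small subunit, the range was 46.1-fold, from 1.56 FPKM for MRPS14 to 71.9 FPKM for MRPS26. The 5 highest members there, MRPS26, MRPS15, MRPS18B, MRPS21 and MRPS24, held 46.7% of the sum. MRPS14, MRPS30 and MRPS27 were the lowest, at 1.56, 2.19 and 3.09 FPKM.

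**Figure D1:**
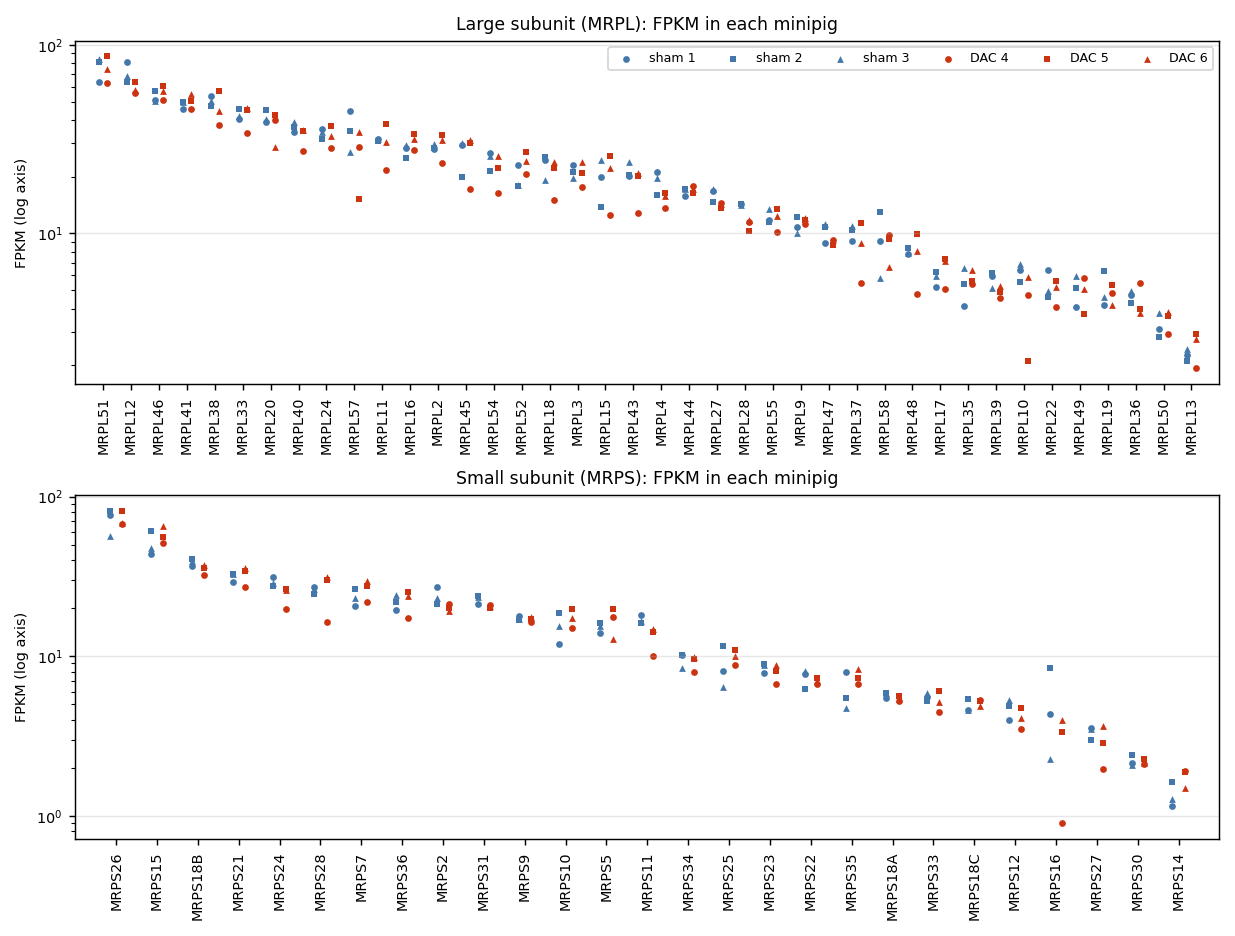
FPKM of each mitochondrial ribosomal protein gene on a log axis, large subunit above and small subunit below, ordered by mean over the 6 minipigs; blue symbols are sham replicates 1 to 3 and red symbols DAC replicates 4 to 6. The order runs from MRPL51 (75.6 FPKM) to MRPL13 (2.41) and from MRPS26 (71.9) to MRPS14 (1.56), and the red circles of DAC replicate 4 are often the lowest points of their column.

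Most neighbours in this order could not be told apart. In the sham group, the ranges of adjacent members overlapped in 30 of 39 pairs of the large subunit and in 18 of 26 pairs of the small subunit. In these libraries MRPL51 was at 76.5 ± 11.1 (SD, n = 3) and MRPL12 at 70.8 ± 9.30 FPKM (SD, n = 3), and their ranges overlapped. MRPL46 followed at 52.6 ± 3.55 FPKM (SD, n = 3), with every sham library below the lowest of MRPL12. MRPS26, at 71.3 ± 13.2 FPKM (SD, n = 3), overlapped with MRPS15 at 50.8 ± 8.65 FPKM (SD, n = 3), while MRPS18B, at 38.9 ± 2.11 FPKM (SD, n = 3), lay below both.

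The table's position for MRPL12 (chromosome 12, 1067875 to 1203786) spans 135912 bp, against 3360 bp in RefSeq, and overlaps 11 other listed genes. How reads in such shared stretches were assigned is not given in the sources used here, so the level of MRPL12 is uncertain. Positions of 30 of the 67 members overlap another listed gene.

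The comparison of DAC with sham asked whether 12 weeks of pressure overload went with a different mRNA level of the mitoribosome. Few members differed. Of the 67, MRPL28 and MRPS11 were lower in DAC at an unadjusted P under 0.05, the threshold of the study, and none was higher. Against this, 5.27% of the 11029 genes tested were called lower and 3.25% were called higher. The share among the members was 2.50% lower in the large subunit (1 of 40) and 3.70% lower in the small subunit (1 of 27), so neither exceeded the background. The test was limma's moderated test on log2(FPKM + 1), with Benjamini-Hochberg adjustment over all genes tested. No member had an adjusted P under 0.05, the smallest being 0.511, and no gene of the whole table had one.

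Means leaned lower in both subunits, though by less than the spread between minipigs. In the large subunit, 28 of 40 members had a lower mean log2 value in DAC, and in the small subunit 16 of 27, beside 53.4% of all genes tested. The median log2 fold change was -0.060 for the large and -0.053 for the small subunit, against -0.016 for all genes tested. The standard deviation of the subunit's median between minipigs of a group was 0.12 for the large and 0.071 for the small subunit on the same log2 scale. All DAC libraries lay below all sham libraries for 5 members, 7.46% of the 67, beside 8.91% of all genes tested. For none did all DAC libraries lie above, beside 6.01% of all genes.

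**Figure D2:**
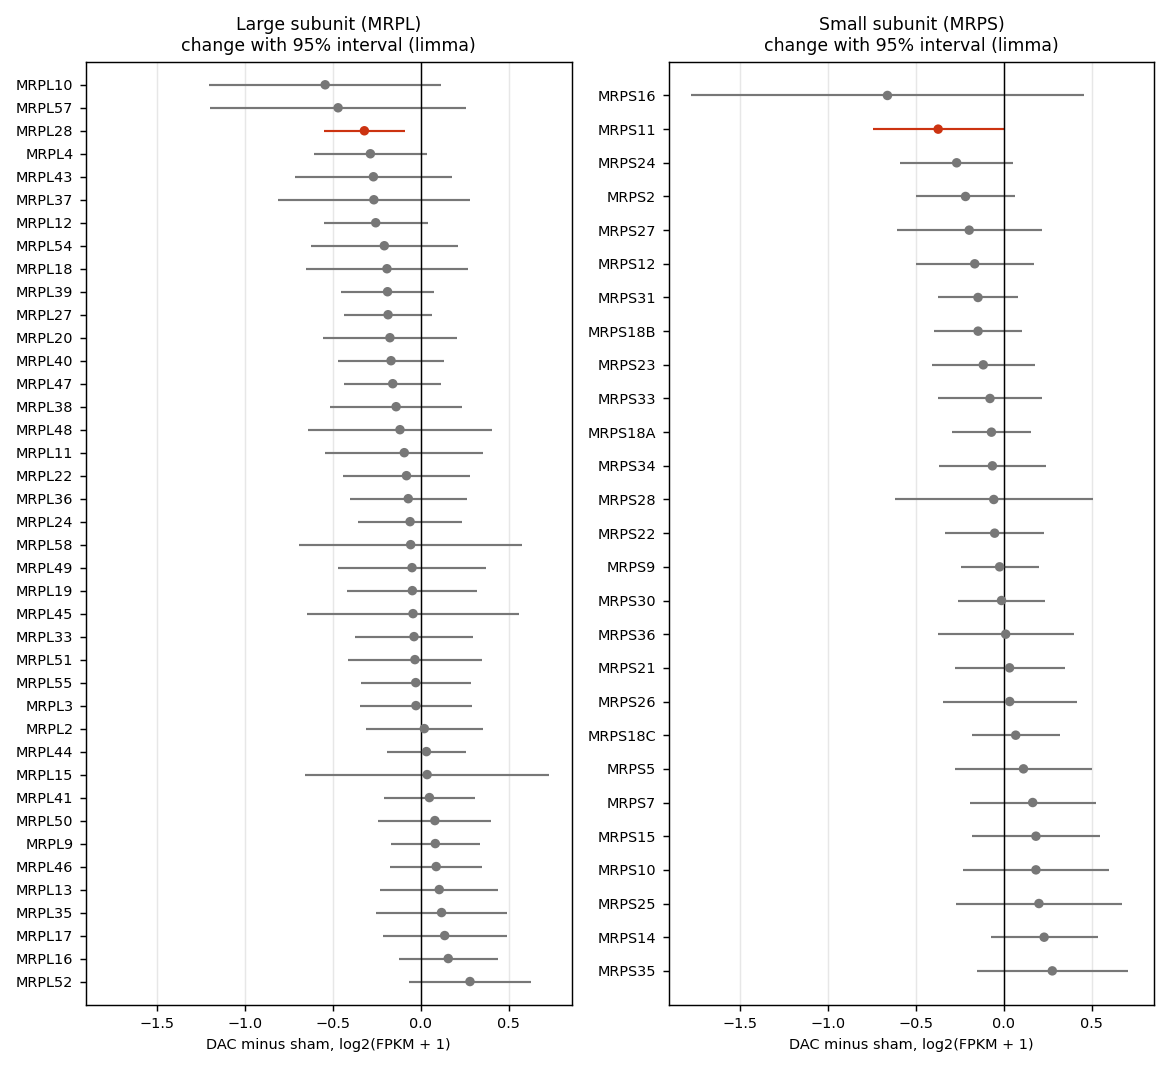
Difference between DAC and sham on the log2(FPKM + 1) scale for each member of the large (left) and small (right) subunit, with the 95% interval from limma; red marks the members with an unadjusted P under 0.05. MRPL28 and MRPS11 are the red points, and the intervals of all other members include 0.

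The intervals show what these 6 libraries could resolve. The half-width of the 95% interval of a member's log2 fold change had a median of 0.33 and ran from 0.22 to 1.12. In 64 of the 67 members the whole interval lay between -1 and 1, which leaves out a change of a full log2 unit. In 36 members it lay between -0.5 and 0.5. A comparison of 3 libraries with 3 cannot give an exact two-sided permutation P under 0.10.

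MRPL28 (ENSSSCG00000007984, susScr11, chromosome 3 from 41320046 to 41334451), a large subunit protein with a bacterial counterpart, gave the lowest P of the members. It was at 14.4, 14.3 and 14.1 FPKM in sham replicates 1 to 3 and at 11.5, 10.3 and 11.8 FPKM in DAC replicates 4 to 6. The groups did not overlap, and MRPL28 was the member that varied least between sham minipigs, with a coefficient of variation of 0.913%. Its log2 fold change was -0.32, with a standard error of 0.098, a 95% interval from -0.55 to -0.091 and an adjusted P = 0.511 from limma. MRPL28 passed the unadjusted threshold in each of the 13 alternatives tried, where its log2 fold change was between -0.36 and -0.27. The position given for it overlaps that of PGAP6 on the same strand, a gene at 2.06 ± 0.408 FPKM in sham and 1.58 ± 0.282 FPKM in DAC (SD, n = 3 each), and the table's MRPL28 spans 14406 bp against 3109 bp in RefSeq.

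MRPS11 (ENSSSCG00000037343, chromosome 1 from 191309198 to 191321648), a small subunit protein with a bacterial counterpart, was at 18.2, 16.2 and 16.6 FPKM in sham replicates 1 to 3. In DAC replicates 4 to 6 it was at 10.005, 14.2 and 14.9 FPKM. The groups did not overlap, but DAC replicate 4 lay well below the other DAC libraries. The difference on the log2 scale was -0.37 with a standard error of 0.16 (adjusted P = 0.586 from limma), and its 95% interval, from -0.75 to -0.0018, only just left out 0. MRPS11 passed the unadjusted threshold in 4 of 13 alternatives. Without DAC replicate 4 its log2 fold change was -0.21 and did not pass, and it also failed to pass without sham replicate 1, 2 or 3.

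MRPS11 lies 350 bp from MRPL46 (ENSSSCG00000005105, chromosome 1 from 191321999 to 191331319), and the genes point away from each other on opposite strands. MRPL46 was at 50.7, 56.7 and 50.4 FPKM in the sham libraries and at 50.7, 60.2 and 56.9 FPKM in the DAC libraries. Its groups overlapped, with a log2 fold change of 0.086 and a 95% interval from -0.17 to 0.35. Whether the changes of MRPS11 and MRPL46 differ from each other was not tested.

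Another 3 members had no overlap between groups without passing the test, and they are named here after their values were seen. MRPL27 was at 16.9, 14.6 and 17.3 FPKM in the sham libraries and at 14.5, 13.6 and 14.3 FPKM in the DAC libraries (adjusted P = 0.647 from limma). MRPS24, which has a bacterial counterpart at the entry of the mRNA channel, was at 31.2, 27.6 and 28.6 FPKM in sham and 19.9, 26.5 and 26.1 FPKM in DAC (adjusted P = 0.627 from limma). MRPS31 was at 21.4, 23.9 and 23.6 FPKM in sham and 20.9, 20.2 and 20.7 FPKM in DAC (adjusted P = 0.689 from limma). In MRPL27 and MRPS31 the distance between the groups was small, and in MRPS24 the lowest library was again DAC replicate 4.

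The largest negative log2 fold changes belonged to MRPS16, MRPL10 and MRPL57, the members with the highest coefficients of variation in DAC (59.4%, 45.5% and 37.5%). MRPS16 was at 4.33, 8.46 and 2.27 FPKM in the sham libraries and at 0.902, 3.37 and 4.01 FPKM in the DAC libraries. Its groups overlapped and its log2 fold change of -0.66 had a 95% interval from -1.78 to 0.45. It was -0.23 without DAC replicate 4 and -0.27 without sham replicate 2. The position of MRPS16 spans 25751 bp against 3623 bp in RefSeq. It overlaps DNAJC9 on the same strand and FAM149B1 on the opposite strand, and the position of MRPL10 overlaps OSBPL7 on the same strand. How reads in these stretches were assigned is not given, and its part in the scatter was not tested. MRPL10, a protein at the base of the ribosomal stalk, was at 6.41, 5.52 and 6.86 FPKM in sham and at 4.70, 2.12 and 5.88 FPKM in DAC. Here DAC replicate 5 was the low library, and the log2 fold change of -0.55 did not pass the test (adjusted P = 0.629 from limma). Leaving out DAC replicate 5 brought its log2 fold change to -0.21, while leaving out DAC replicate 6 brought it to -0.78, past the unadjusted threshold. MRPL57 ranged from 27.0 to 44.3 FPKM in sham and from 15.3 to 34.3 FPKM in DAC, with a log2 fold change of -0.47 (adjusted P = 0.688 from limma). Without DAC replicate 5, the lowest library, the log2 fold change of MRPL57 was -0.14.

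The largest positive differences did not pass the test either. MRPL52 was at 23.0, 17.9 and 17.97 FPKM in the sham libraries and at 20.6, 27.2 and 24.2 FPKM in the DAC libraries. Its log2 fold change was 0.28 (adjusted P = 0.640 from limma). It was 0.38 without DAC replicate 4 and 0.39 without sham replicate 1, and passed the unadjusted threshold in both cases, and it was 0.19 without DAC replicate 5. MRPS35 had a log2 fold change of 0.28 (adjusted P = 0.692 from limma). Without sham replicate 1, at 8.01 FPKM the highest sham library for MRPS35 against 5.46 and 4.73, it was 0.46 and passed the unadjusted threshold, and without sham replicate 3 it was 0.14. MRPS14, a small subunit protein with a bacterial counterpart, had a log2 fold change of 0.23 (adjusted P = 0.647 from limma). For MRPS25, MRPL16 and MRPL17 it was 0.20, 0.16 and 0.13, each with an interval that included 0.

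**Figure D3:**
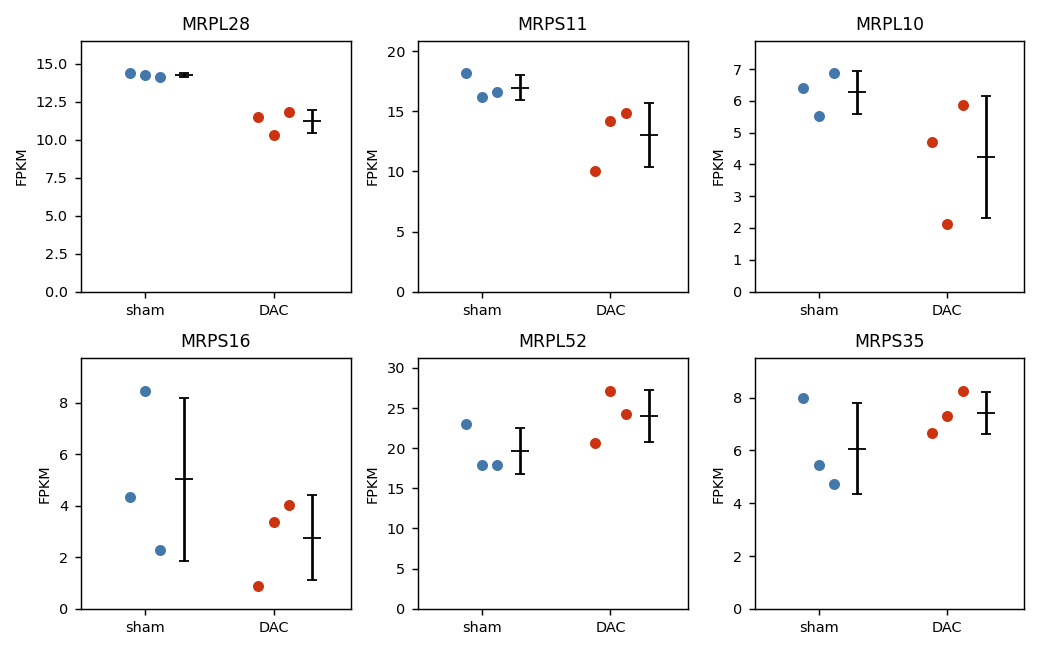
FPKM in each minipig (points) with mean and SD (bars, n = 3 per group) for both members past the threshold, MRPL28 and MRPS11, and for MRPL10, MRPS16, MRPL52 and MRPS35. Sham is blue and DAC is red; the groups are apart for MRPL28 and MRPS11 and overlap in the others.

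Members with a role of their own gave no further call. In the stalk, which recruits translation factors, MRPL12 was at 81.2, 63.3 and 67.9 FPKM in sham and at 55.5, 63.4 and 57.5 FPKM in DAC (log2 fold change -0.26, adjusted P = 0.609 from limma), with the limit on its position given above. MRPL11, at the base of the stalk, was at 31.5, 30.8 and 31.7 FPKM in the sham libraries and at 21.7, 37.9 and 30.4 FPKM in the DAC libraries. Its log2 fold change of -0.095 had a 95% interval from -0.55 to 0.35, wide because the DAC libraries spread on both sides of sham. MRPL45, which anchors the mitoribosome to the inner membrane, had a log2 fold change of -0.045 and an interval from -0.65 to 0.56. MRPL44, a protein with a ribonuclease-like fold in which mutations cause hypertrophic cardiomyopathy, was between 15.9 and 17.3 FPKM in sham and between 16.5 and 17.8 FPKM in DAC. Its log2 fold change of 0.031 had an interval from -0.20 to 0.26. MRPL58, a homologue of release factors that frees stalled peptides, had a log2 fold change of -0.059 and an interval from -0.69 to 0.57.

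The 3 MRPS18 genes arose from one ancestral gene, and their products occupy different places, MRPS18A in the large subunit and MRPS18B and MRPS18C in the small subunit. Their levels differed: in the sham group MRPS18B was at 38.9 ± 2.11, MRPS18A at 5.74 ± 0.212 and MRPS18C at 4.85 ± 0.464 FPKM (SD, n = 3). None passed the test, with log2 fold changes of -0.15 for MRPS18B, -0.071 for MRPS18A and 0.067 for MRPS18C. MRPS30, also located in the large subunit despite its symbol, was between 2.08 and 2.40 FPKM in sham and between 2.10 and 2.28 FPKM in DAC. MRPS36, which is a subunit of the 2-oxoglutarate dehydrogenase complex rather than of the ribosome, had a log2 fold change of 0.010 and an interval from -0.38 to 0.40. For MRPS22 and MRPS27, small subunit proteins without a bacterial counterpart, the log2 fold changes were -0.053 and -0.20, and both intervals included 0.

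Members with a bacterial counterpart and members found only in mitochondria gave similar counts. Of 37 of the former, 23 had a lower mean in DAC, with a median log2 fold change of -0.049. Of 29 of the latter, 21 had a lower mean, with a median of -0.066. The members past the threshold, MRPL28 and MRPS11, both belong to the first class, 5.41% of it, close to the background of 5.27%.

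Much of the lean toward lower values came with 1 library. DAC replicate 4 was the lowest of the 6 libraries in 23 of 40 large subunit members and in 14 of 27 small subunit members, whereas it was lowest in 21.1% of all genes tested. It lay below the whole sham range in 26 large and 15 small subunit members, against 32.6% of all genes. The median deviation of its large subunit members from the sham mean was -0.26 on the log2 scale, against 0.077 in DAC replicate 5 and -0.0051 in DAC replicate 6. For the small subunit the deviations were -0.12, 0.035 and 0.00058 in the same order. The median over all genes in DAC replicate 4 was -0.022. DAC replicate 5 lay above the whole sham range in 15 large and 9 small subunit members, against 24.4% of all genes. It lay below that range in 8 large and 6 small subunit members, against 34.9% of all genes.

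**Figure D4:**
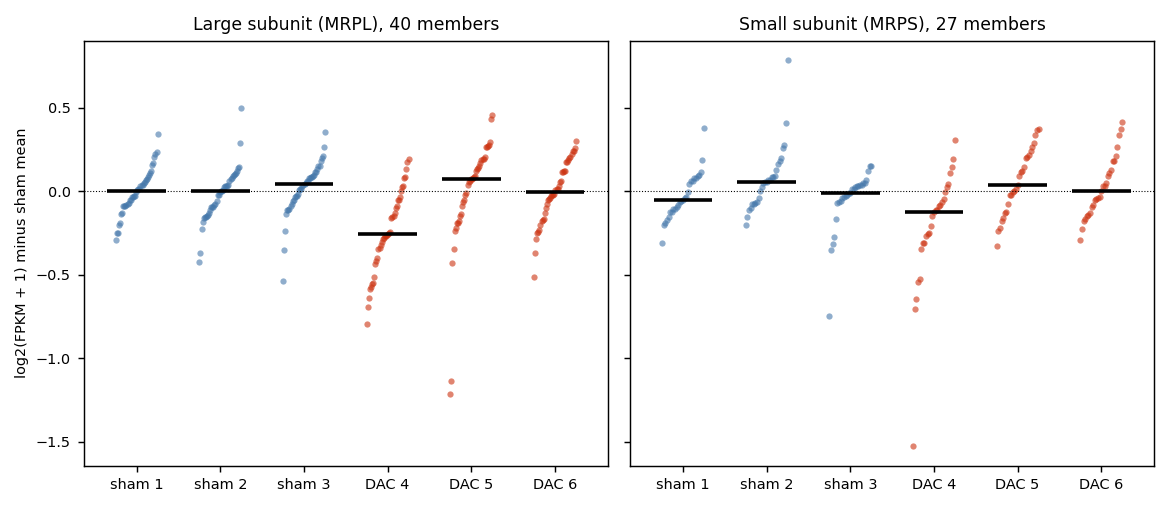
Deviation of each member from its mean over the sham libraries, on the log2(FPKM + 1) scale, in each minipig, for 40 large subunit (left) and 27 small subunit (right) members; points within a column are sorted, and black bars are medians. The median of DAC replicate 4 is at -0.26 in the large and -0.12 in the small subunit. Those of DAC replicate 5 are at 0.077 and 0.035, and those of DAC replicate 6 at -0.0051 and 0.00058.

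The sums show the same. The large subunit summed to 915, 894 and 917 FPKM in the sham libraries and to 749, 932 and 897 FPKM in DAC replicates 4 to 6. The small subunit summed to 467, 508 and 457 FPKM in sham and to 416, 503 and 496 FPKM in DAC. The sums of both subunits overlapped between the groups, and without DAC replicate 4 the DAC values lay among those of sham or, for DAC replicate 5 in the large subunit, above them. The ratio of the large to the small subunit sum was 1.91 ± 0.131 (SD, n = 3) in sham and 1.82 ± 0.0278 (SD, n = 3) in DAC, with sham replicate 2 (1.76) below all DAC libraries.

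When DAC replicate 4 was left out, 18 of 40 large subunit and 11 of 27 small subunit members had a lower mean in DAC. The median log2 fold change was then 0.017 for the large and 0.011 for the small subunit. MRPL28 was then the member called lower and MRPL52 the member called higher, beside 515 genes lower and 314 higher of 11029 tested. Without DAC replicate 5, the medians were -0.14 and -0.093.

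The share of the members in all FPKM was 0.485% ± 0.00815 (SD, n = 3) in sham and 0.452% ± 0.0340 (SD, n = 3) in DAC. As a share of the FPKM of nuclear genes alone, it was 0.644% ± 0.00727 (SD, n = 3) in sham and 0.638% ± 0.0636 (SD, n = 3) in DAC. In the latter, DAC replicate 5 was the highest of the 6 libraries at 0.691% and DAC replicate 4 the lowest at 0.567%. Left out of the table and the rest rescaled, the mitochondrially encoded genes moved the median log2 fold change to -0.019 for the large and -0.014 for the small subunit, beside 0.020 for all genes.

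Of the 3 genes matched by identifier alone, MRPS6 was past the threshold and was singled out after its value was seen. MRPS6 (ENSSSCG00000026981, chromosome 13 from 197687783 to 197756787), which has a bacterial counterpart in the small subunit, was at 92.6, 74.5 and 85.9 FPKM in the sham libraries and at 64.6, 68.8 and 66.6 FPKM in the DAC libraries. The groups did not overlap, and the difference was -0.33 on the log2 scale with a standard error of 0.11 (adjusted P = 0.546 from limma). At 84.3 ± 9.16 FPKM (SD, n = 3) in sham, its mean was above that of every MRPS gene listed by symbol, though its range overlapped that of MRPS26. MRPL30 and MRPL34 had log2 fold changes of -0.071 and -0.025 and overlapping groups.

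Mitoribosomal proteins that carry other symbols gave no call. All 5 in the table, among them DAP3 and PTCD3 of the small subunit, had intervals including 0, with a median log2 fold change of 0.016. DAP3 was at 7.44 ± 0.777 FPKM (SD, n = 3) in sham and 7.27 ± 1.17 FPKM (SD, n = 3) in DAC.

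The list drawn up for mitoribosome assembly and rRNA modification had 3 of 24 tested genes called lower (12.5%, beside 5.27% of all genes). None was called higher, and the median log2 fold change was -0.081. The list was drawn broadly and also holds LYRM7 (log2 fold change 0.25, not called), which serves respiratory complex III. The count called lower was 1 of 24 without sham replicate 1 (beside 3.26% of all genes) or sham replicate 3 (beside 3.51%). TRUB2, a pseudouridine synthase that acts on mitochondrial RNA, was at 16.3, 17.7 and 24.8 FPKM in sham and at 10.5, 11.1 and 14.5 FPKM in DAC. The groups did not overlap, and its log2 fold change was -0.65 (adjusted P = 0.505 from limma). The GTPases NOA1, needed for the small subunit, and MTG2, needed for the large subunit, were the other genes called, with log2 fold changes of -0.34 (adjusted P = 0.553) and -0.29 (adjusted P = 0.584) from limma. TRUB2 was called in each of 13 alternatives, NOA1 in 8 of 12 and MTG2 in 6 of 12.

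Among 20 tested genes for mitochondrial translation factors and their partners, 2 were called lower (10%, beside 5.27% of all genes) and none higher, with a median log2 fold change of -0.083. In limma, the count called lower was 0 without sham replicate 1 (beside 3.26% of all genes). It was 1 without sham replicate 3 (beside 3.51%) or DAC replicate 4 (beside 4.67%) and 4 without DAC replicate 5 (beside 4.40%). MTIF3, the initiation factor that acts on the small subunit, was at 3.99, 3.27 and 3.21 FPKM in sham and at 2.17, 2.74 and 2.27 FPKM in DAC. Its log2 fold change was -0.41 (adjusted P = 0.511 from limma). OXA1L, which inserts newly made proteins into the inner membrane at the tunnel exit, was at 29.4, 28.9 and 30.6 FPKM in sham and at 22.4, 24.9 and 25.3 FPKM in DAC (log2 fold change -0.28, adjusted P = 0.553 from limma). In both genes all DAC libraries were below all sham libraries, and DAC replicate 4 was the lowest.

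Of 18 tested mitochondrial aminoacyl-tRNA synthetases, which charge tRNAs with amino acids, 13 had a lower mean in DAC, and the median log2 fold change was -0.094. With a minimum of 5 FPKM, 3 of the 6 synthetases left had a lower mean, and their median was -0.0077. GARS1 and KARS1, which are among these 6, also encode the cytosolic enzymes, so their levels are not of mitochondrial synthetases alone. Of 20 genes for mitochondrial transcription and DNA maintenance, 1 was called lower (5%, beside 5.27% of all genes) and none higher, and the median was -0.086. Leaving out DAC replicate 5 gave 3 called lower (beside 4.40% of all genes). Leaving out DAC replicate 4, sham replicate 1 or sham replicate 3 gave 2 (beside 4.67%, 3.26% and 3.51%). The called gene was TWNK, the helicase of mitochondrial DNA, at 6.55, 2.81 and 3.43 FPKM in sham and at 1.49, 1.70 and 2.25 FPKM in DAC (log2 fold change -0.85, adjusted P = 0.509 from limma). TWNK overlaps MRPL43 on the opposite strand, where reads cannot be told apart unless strand was used in counting, which is not stated, and MRPL43 had a log2 fold change of -0.27 (adjusted P = 0.708 from limma). Without DAC replicate 4 the medians of these 4 lists, from assembly to transcription, were between -0.076 and -0.049, so they stayed below 0 where those of the ribosomal proteins did not.

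Among 12 tested nuclear activators of mitochondrial genes, PPARGC1A was called higher (beside 3.25% of all genes) and none was called lower (beside 5.27%). The median log2 fold change was -0.0058. In 3 of the 12, all DAC libraries lay below all sham libraries (25%, beside 8.91% of all genes), and in none above. PPARGC1A, a coactivator that induces mitochondrial biogenesis, was at 24.4, 25.6 and 20.1 FPKM in sham and at 34.0, 25.3 and 46.7 FPKM in DAC. The groups overlapped, and the log2 fold change of 0.54 (adjusted P = 0.584 from limma) became 0.32 without DAC replicate 6, no longer past the unadjusted threshold. Without DAC replicate 4, 2 of these 12 genes were called lower (beside 4.67% of all genes) and none higher.

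The mRNAs that the mitoribosome translates had higher means in DAC. All 13 mitochondrially encoded respiratory chain genes had a higher mean in DAC, with a median log2 fold change of 0.26. These genes share the mitochondrial genome and are not separate observations. ATP6, ND4 and ATP8, 3 of the 13, were called higher (beside 3.25% of all genes), with adjusted P = 0.531, 0.584 and 0.584 from limma. The groups overlapped for ND4 and ATP8 but not for ATP6. After quantile normalization the median was 0.014, 6 of the 13 had a lower mean and none was called by limma. That step gives each rank the same value in every library, and these genes are among the highest (means of 2304 to 19673 FPKM). It takes out much of a shared rise by design, so it cannot judge one. The count called higher was also 0 without sham replicate 1 or 3 (beside 241 and 244 of 11029 genes tested). It was 1 without DAC replicate 5 (beside 470) and 8 without DAC replicate 4 (beside 314). The median deviation from sham was 0.048 in DAC replicate 4, 0.51 in DAC replicate 5 and 0.16 in DAC replicate 6. DAC replicate 4 was the lowest and DAC replicate 5 the highest DAC library in this list, as in both subunits. Here DAC replicate 4 did not lie below the sham libraries, which had medians from -0.039 to 0.044.

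The cytosolic ribosomal proteins, the nearest counterpart, also had no member past the threshold among 61 tested. Their median log2 fold change was 0.044, and 44 of 61 had a higher mean in DAC. DAC replicate 4 was the lowest library in 36 of the 61, and its median deviation was -0.12, against 0.21 in DAC replicate 5 and 0.061 in DAC replicate 6. Without DAC replicate 4, 9 of the 61 were called higher (beside 314 of 11029 genes tested) and the median was 0.13. Without DAC replicate 5, 2 were called lower (beside 4.40% of all genes) and the median was -0.031. DAC replicate 4 was also low in some other lists, with median deviations of -0.16 for transcription and DNA maintenance and -0.15 for the aminoacyl-tRNA synthetases. It was at -0.12 for assembly and rRNA modification and -0.14 for the leukocyte markers. In the fibroblast (0.41), smooth muscle and pericyte (0.19) and cardiomyocyte (0.038) markers and the nuclear activators (0.032) it was above the sham mean. DAC replicate 6 was at -0.10 for assembly. For the translation factors DAC replicate 6 was at -0.12, below DAC replicate 4 at -0.071.

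**Figure D5:**
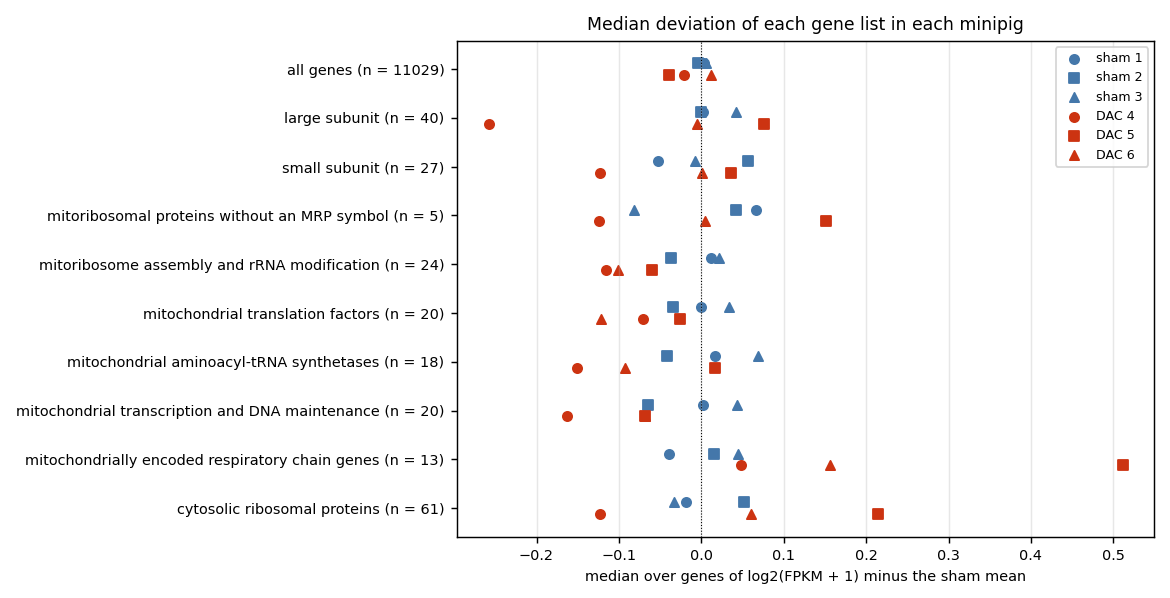
Median over the genes of each list of the deviation from the sham mean, on the log2(FPKM + 1) scale, in each minipig; n is the number of genes tested, blue symbols are sham and red symbols DAC. DAC replicate 4 (red circle) lies at -0.26 for the large subunit and -0.12 for the cytosolic ribosomal proteins, and DAC replicate 5 (red square) lies at 0.51 for the mitochondrially encoded genes.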

How the data were processed

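The authors deposited 1 table of FPKM with a column for each of 3 sham and 3 DAC minipigs. The submitters' processing notes name HISAT2 and the build susScr11; the program and annotation behind the FPKM, and the handling of shared reads, are not given in the sources used here. Libraries were made with the NEBNext Ultra kit, and both ends of each fragment were read on a HiSeq platform. Every listed gene had at least 0.500 FPKM in its highest library. For 65 of the 67 members the position overlapped that of the same symbol in RefSeq (Sscrofa11.1), and the other 2 lie on an unplaced scaffold. No genome or table of sequences was used, so none is printed.

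Values were compared as log2(FPKM + 1) with limma 3.58.1 in R 4.3.3 (trend of the variance over the mean), for the 11029 genes that reached 1 FPKM in 3 or more libraries. A fold change on this scale understates that of low genes. The call is an unadjusted P under 0.05, as in the study; adjustment was by Benjamini-Hochberg over all genes tested. Depth is unknown, so precision rests on the spread between minipigs. No batch is named in the labels. Genes without a symbol (520) were named by identifier for the lists only. The steps were tested on simulated data.

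The members and lists were chosen with earlier results of these data known. Named are members past the threshold, in each subunit the 5 highest and 3 lowest by mean FPKM and the 3 largest log2 fold changes in each direction, members of special role or origin, and up to 4 called genes of each list. Results for the single genes of 1 list are not reported here. The alternatives changed the filter (none, or 5 FPKM), the scaling (to the median, by quantiles, or without mitochondrially encoded genes), the pseudocount (0.1), the variance (each gene's own), the libraries (each left out) and the assignment to subunits (by structure).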

Additional observations from a re-analysis of the deposited data

How the results depend on the processing

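No paired analysis was made, because the study assigned the minipigs to the groups at random and compared the groups with unpaired tests. With 3 minipigs a group and unknown depth, the 95% interval of a member's log2 fold change had a median half-width of 0.33. The number of large subunit members called lower was 1 in all 6 libraries and between 1 and 2 with 1 library left out, and of those called higher between 0 and 1. For the small subunit the number called lower was between 0 and 1 with 1 library left out, and of those called higher between 0 and 1. MRPS11 was lost after median scaling, quantile normalization, leaving out mitochondrially encoded genes and with a pseudocount of 0.1, each of which left 0 small subunit members called lower in limma. With each gene's own variance the small subunit call was MRPS31 in place of MRPS11. Adding members matched by identifier, chosen after seeing the data, gave 2 small subunit members called lower. Subunits by structure (42 large and 24 small members) changed no count of members called, and 30 large and 14 small members then had a lower mean. Under the alternatives that kept all 6 libraries, the medians of the subunits moved by less than the spread between minipigs. That spread includes any library left out, so it cannot judge the alternatives with 1 library left out. In those, the median ran from -0.14 to 0.017 for the large and from -0.093 to 0.011 for the small subunit. Both were above 0 without DAC replicate 4 only. Over all genes, 358 were called higher and 581 lower. A minimum of 5 FPKM gave 165 higher and 414 lower of 6271, and with 1 library left out there were 359 to 674 lower and 241 to 470 higher, the lowest counts being without sham replicate 1 and, at 387 lower, without sham replicate 3. The share of lower calls fell when mitochondrially encoded genes were left out (407 lower, 500 higher). The causes were not tested.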
